A study of Homo sapiens with 18 samples.

Results

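The regions described here are the ATAC-seq peaks of 5 genes, RGCC, CD9, MOB3B, XXYLT1 and UBE2E2, in the Burkitt lymphoma B-cell line Raji. A peak belonged to a gene when the span of that protein-coding RefSeq gene on GRCh38 contained the peak centre, or when the gene was the nearest within 50 kb. The rule gave 68 of the 71318 peaks, with 8 at RGCC, 11 at CD9, 15 at MOB3B, 16 at XXYLT1 and 18 at UBE2E2. The 5 genes were picked because most of their distal peaks, those over 1 kb from any gene end, were lower in GFP low than in GFP high cells. The difference between GFP levels at these peaks is therefore a description: calls from the fit over all peaks are counted, no p-value is given for it and nothing is concluded from it. The working name of the set called the loci compact, which held for RGCC and CD9, at 13.3 and 38.3 kb, and not for the others. MOB3B spans 204.6 kb, XXYLT1 202.9 kb and UBE2E2 388.8 kb, where the median protein-coding gene spans 24.1 kb.

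Accessible DNA was cut and tagged by a transposase (Omni-ATAC-seq) in Raji cells carrying an auxin-inducible degron, a system that lets auxin trigger destruction of a tagged protein. The protein was SMARCA4, also called BRG1, 1 of the ATPases that drive BAF chromatin remodellers. The groups were GFP low cells at 24, 48 and 72 h and GFP high cells at 24, 48 and 72 h, all from Raji with the genotype Smarca4+/+ in the labels. What GFP reports is not in the labels, nor which level goes with loss of SMARCA4, what the times are counted from, nor whether auxin was given to both levels. They also do not say whether libraries came from separate cultures or clones. Between the 3 deposited columns of a GFP level and time, differences were a fixed multiple of counting noise at all levels of signal. The columns were counted as 1 library, which leaves 1 library per GFP level and time and 3 per GFP level over the times.

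The 6 libraries held 27646157 to 29790483 counts in GFP low and 22908652 to 29503529 in GFP high. The B-cell marker genes MS4A1, CD79A, CD79B, CD22 and PAX5 all had a peak at a gene end, and their gene-end signal summed to 182 to 191 CPM in GFP low and 177 to 186 CPM in GFP high, where CPM are counts scaled by the size of each library. Of 4 T-cell markers, 3 had such a peak (CD3G had none), with sums of 61.0 to 64.1 CPM in GFP low and 71.0 to 72.8 CPM in GFP high, and the part of that difference in the results below was not tested. None of the 4 myeloid markers (CD14, LYZ, CSF1R, MPO) and none of the 4 epithelial markers (EPCAM, KRT8, KRT18, CDH1) had a gene-end peak. In bulk libraries, fewer cells with an open site and a less open site in each cell cannot be told apart.

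BAF complexes use ATP to slide and evict nucleosomes, and in many cell types they keep distal regulatory elements accessible, more so than promoters. The 5 genes share no pathway. RGCC codes for a regulator of the cell cycle that binds CDK1 and was found as a gene responding to complement. CD9 is a tetraspanin, a membrane protein that organises other surface proteins such as integrins, and in mice it marks marginal zone B cells and plasma cells. MOB3B belongs to the MOB family, whose best known members bind and activate NDR and LATS kinases. XXYLT1 is a glycosyltransferase of the endoplasmic reticulum that adds the outer xylose to O-glucose glycans on the EGF repeats of Notch receptors. UBE2E2 is a ubiquitin-conjugating enzyme, the class that passes ubiquitin on to substrates together with a ligase.

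The promoters are shown because the starts of the 5 genes differed in whether a peak lay there, and because start peaks and distal peaks of the same gene went different ways. RefSeq gave a start sequence for all 5 genes (GRCh38.p14), each running from 250 bases before to 50 after the start, 300 bases in all, printed in the direction of transcription. The 3 below are UBE2E2 and XXYLT1, whose outermost start lay fully under a peak, and RGCC, whose start had none. Capitals mark the letters GGGCGG, known as the GC box, on either strand.
UBE2E2 (chr3:23202848-23203147, plus strand, peak over the start): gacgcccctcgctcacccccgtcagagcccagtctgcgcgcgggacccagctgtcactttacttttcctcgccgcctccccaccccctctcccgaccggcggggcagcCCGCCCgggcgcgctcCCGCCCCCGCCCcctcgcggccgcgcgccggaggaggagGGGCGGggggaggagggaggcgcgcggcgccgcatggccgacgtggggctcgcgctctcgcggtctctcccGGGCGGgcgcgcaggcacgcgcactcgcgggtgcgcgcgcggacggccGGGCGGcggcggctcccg
XXYLT1 (chr3:195271110-195271409, minus strand, peak over the start): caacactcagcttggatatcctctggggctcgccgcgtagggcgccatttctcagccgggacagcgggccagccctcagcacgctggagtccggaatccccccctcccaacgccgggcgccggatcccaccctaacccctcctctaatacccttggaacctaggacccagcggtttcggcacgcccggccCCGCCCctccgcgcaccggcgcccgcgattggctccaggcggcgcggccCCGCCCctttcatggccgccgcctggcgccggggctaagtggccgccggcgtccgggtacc
RGCC (chr13:41457300-41457599, plus strand, no peak over the start): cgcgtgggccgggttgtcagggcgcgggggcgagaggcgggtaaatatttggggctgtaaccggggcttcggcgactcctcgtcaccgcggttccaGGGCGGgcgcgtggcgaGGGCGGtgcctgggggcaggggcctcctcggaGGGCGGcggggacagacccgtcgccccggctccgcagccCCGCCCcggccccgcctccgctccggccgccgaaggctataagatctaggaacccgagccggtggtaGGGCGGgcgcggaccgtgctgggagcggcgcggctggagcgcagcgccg
The UBE2E2 sequence held 6 GC boxes, 53 CpG and 81.7% G or C. The XXYLT1 sequence held 2 GC boxes, 35 CpG and 72.7% G or C, and the RGCC sequence 5 GC boxes, 44 CpG and 76.7% G or C. Over 22072 protein-coding promoters of the same length the medians were 21 CpG and 62.3% G or C, and 56.3% held a GC box. The sequence without a peak thus held more GC boxes and CpG than that of XXYLT1, which lay under one. The outermost starts of MOB3B and CD9 held no GC box, with 19 and 12 CpG. Other CD9 starts lay further in and differed from the outermost one. The sequence at chr12:6200150-6200449 held 6 GC boxes and 32 CpG, and that at chr12:6200592-6200891 held 3 and 30. The last, chr12:6225889-6226188, held 0 and 1, and none of the CD9 starts lay under a peak. None of the 5 outermost starts held CCGGAAG, a core of ETS sites present in 12.8% of promoters, or TGANTCA, a core of AP-1 sites present in 6.17%, on either strand.

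Over the 3 times, 52 of the 64 distal peaks of the 5 genes were called lower in GFP low, 1 was called higher and 11 were neither. A call means a Benjamini-Hochberg adjusted p under 0.05 over all peaks in edgeR's quasi-likelihood fit of time plus GFP level. The background was 30.5% of all distal peaks called lower and 8.43% called higher, from which nothing is read here, since the genes were picked on this contrast. None of the 4 gene-end peaks was called lower and 2 were called higher, where 4.24% and 34.4% of all gene-end peaks were. The median log2 change (GFP low over GFP high) was -0.63 at the distal peaks of the 5 genes, against -0.05 at all distal peaks, and 0.13 at their gene-end peaks, against 0.18 at all gene-end peaks. Of the 52 lower peaks 14 were also at least 2-fold lower, where 4% of all peaks were called lower by that much. All 3 GFP low libraries lay below all 3 GFP high libraries at 49 of the 68 peaks and above them at 5, where the shares of all peaks were 25.1% and 20.8%.

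Among 1429 genes with at least 8 distal peaks, the median share of distal peaks called lower was 33.33%, and 258 genes, 18.05%, were over 50%. RGCC was at 100%, with 8 of 8, and no other gene reached that share. CD9 was at 81.82% with 9 of 11, MOB3B at 80% with 12 of 15, XXYLT1 at 78.57% with 11 of 14 and UBE2E2 at 75% with 12 of 16. These values chose the genes and support nothing beyond the choice. UBE2E2 lay nearest to the limit of 50%, and 44 genes, itself and the other 4 included, reached its share or a higher one.

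**Figure D1:**
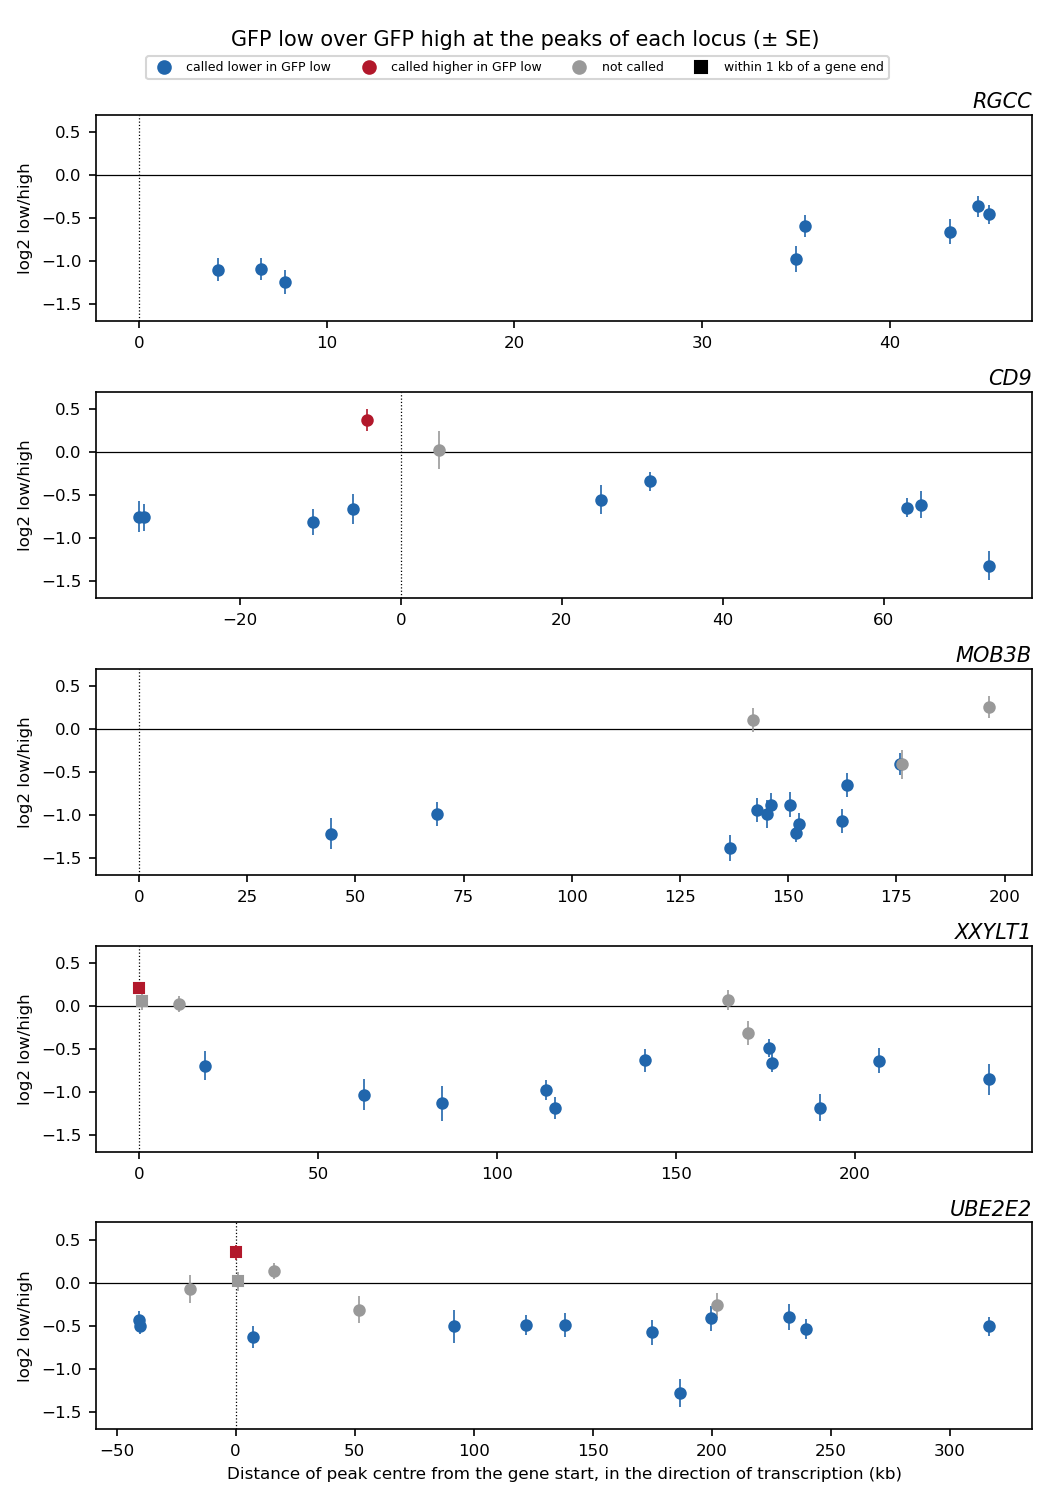
Log2 change of each peak, GFP low over GFP high over the 3 times (vertical axis), against the distance of its centre from the gene start in kb, in the direction of transcription (horizontal axis), with 1 panel per gene and bars of 1 SE. Blue points were called lower, red higher and grey neither, and squares lie within 1 kb of a gene end. The squares at the starts of XXYLT1 and UBE2E2 lie at or above 0, while 52 of the 64 round points are blue.

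All 8 RGCC peaks were lower in GFP low than in GFP high cells. They comprised 3 inside the gene, 4.2 to 7.8 kb past the start, and 5 beyond its far end, 35.0 to 45.3 kb past the start. The strongest, chr13:41461529-41462029, had 9.40, 15.5 and 19.3 CPM in GFP low at 24, 48 and 72 h, against 29.9, 30.2 and 32.1 CPM in GFP high. GFP high was near level over the times, and GFP low stayed below it at each time with a gap that was widest at 24 h. The log2 change over times was -1.10 ± 0.13 (SE).

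The other peaks inside RGCC had like ratios at lower levels. The peak at chr13:41463788-41464288 had 5.92, 5.55 and 7.13 CPM in GFP low, against 13.0, 13.1 and 13.5 CPM in GFP high, a log2 change of -1.09 ± 0.13. The peak at chr13:41465124-41465624 had 4.50, 4.84 and 4.52 CPM in GFP low, against 9.24, 11.4 and 12.3 CPM in GFP high, a log2 change of -1.24 ± 0.14. At both peaks GFP low varied little over the times, and the groups did not overlap.

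Beyond the gene the differences were smaller, with log2 changes from -0.98 to -0.37 and a median of -0.59 at the 5 peaks. The most distant peak, chr13:41502579-41503079, had 13.0, 19.9 and 23.2 CPM in GFP low, against 21.6, 26.0 and 28.2 CPM in GFP high, a log2 change of -0.46 ± 0.11. Its neighbour at chr13:41502039-41502539 had 8.01, 11.4 and 12.1 CPM in GFP low, against 11.4, 14.1 and 15.0 CPM in GFP high, a log2 change of -0.37 ± 0.12. At both, signal was higher at later times in both GFP levels, so that the 72 h GFP low library overlapped the 24 h GFP high library while GFP low was lower at each time. The second of these was not called with DESeq2, or without the 24 h or 72 h pair, column V0 or column V2.

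Summed over the 3 peaks inside RGCC, GFP low held 38.0%, 47.4% and 53.4% of the GFP high signal at 24, 48 and 72 h. Over the 5 peaks beyond it the shares were 61.4%, 72.8% and 73.7%. The 3 inside were at least 2-fold lower over times and none of the 5 outside was. No peak lay at the start of RGCC, and the nearest centre was 4.2 kb from it.

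Of the 8 CD9 peaks outside the gene, on both sides of it, 7 were called lower in GFP low. The exception lay 4.2 kb before the start. The lowest log2 change was at chr12:6272786-6273286, 73.1 kb past the start, with 2.38, 3.16 and 4.41 CPM in GFP low, against 7.57, 8.68 and 8.32 CPM in GFP high, a change of -1.32 ± 0.16. Upstream, chr12:6188786-6189286 had 3.33, 5.65 and 5.67 CPM in GFP low, against 7.65, 9.36 and 8.44 CPM in GFP high, a change of -0.81 ± 0.15. Further upstream, chr12:6167768-6168268 had 4.17, 3.20 and 4.55 CPM in GFP low, against 6.66, 6.30 and 7.11 CPM in GFP high, a change of -0.76 ± 0.16. At each of the 3 the highest GFP low library stayed below the lowest GFP high library.

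The CD9 peaks with values above were named for having the lowest log2 changes of the gene. The strongest CD9 peaks are given here, where the median log2 change of all CD9 peaks was -0.65. The one inside the gene, chr12:6230649-6231149, had 16.3, 19.3 and 15.7 CPM in GFP low, against 19.8, 23.0 and 22.3 CPM in GFP high, a log2 change of -0.34 ± 0.11 that was not called without column V1 or the 72 h pair. The one beyond it, chr12:6262526-6263026, had 8.26, 12.8 and 14.4 CPM in GFP low, against 14.5, 19.5 and 20.9 CPM in GFP high, a change of -0.65 ± 0.11. Both had GFP low below GFP high at each time.

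A peak 4.2 kb before the CD9 start went the other way. At chr12:6195545-6196045 GFP low had 8.67, 9.24 and 10.7 CPM, against 6.45, 7.19 and 8.64 CPM in GFP high, a log2 change of 0.37 ± 0.13. The lowest GFP low library was just above the highest GFP high library, and this was the only distal peak among the 64 that was called higher. The call was lost with DESeq2 and without column V1, column V2, the 48 h pair or the 72 h pair. The peak 4.7 kb past the start, a weak one with a mean of 3.05 CPM, had a log2 change of 0.02. The peak 5.9 kb before the start was called lower, at -0.66 ± 0.18. No CD9 peak lay within 1 kb of a gene end.

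MOB3B had the largest median change of the 5 genes, a log2 value of -0.94 over 15 distal peaks, all inside the gene. Most of them lay far from the start: 9 peaks in a row, spanning 33.4 kb, were called lower. The strongest of these, chr9:27377791-27378291, 151.8 kb past the start, had 13.8, 14.2 and 11.8 CPM in GFP low, against 32.5, 31.6 and 27.5 CPM in GFP high, a log2 change of -1.20 ± 0.11. The peak next to it, chr9:27377175-27377675, had 6.22, 6.83 and 5.37 CPM in GFP low, against 15.5, 13.4 and 10.9 CPM in GFP high, a change of -1.10 ± 0.13. In both, GFP low was under GFP high by more than 2-fold over times and the 72 h library was the lowest in each GFP level.

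The lowest log2 change of all 68 peaks was at chr9:27392983-27393483 in MOB3B, with 3.15, 3.56 and 3.97 CPM in GFP low, against 8.64, 10.5 and 8.72 CPM in GFP high, a change of -1.38 ± 0.15. The peak nearest to the start among the distal ones, chr9:27485121-27485621, had 2.71, 2.24 and 2.31 CPM in GFP low, against 6.88, 5.12 and 5.02 CPM in GFP high, a change of -1.22 ± 0.18. A weaker difference was seen at chr9:27353789-27354289, with 8.34, 8.28 and 6.69 CPM in GFP low, against 11.4, 10.6 and 9.00 CPM in GFP high, a change of -0.41 ± 0.12 that was not called with DESeq2 or without the 72 h pair. GFP low and GFP high did not overlap at any of the 3.

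Peaks that were not called lower lay among those that were. The MOB3B peak at chr9:27387661-27388161, next to the row of 9, had a log2 change of 0.10. The last one of the gene, at chr9:27333059-27333559, had 0.26. The one at chr9:27353232-27353732 had -0.41 ± 0.17, with GFP low below GFP high at each time. None of the 3 was called. A peak over the MOB3B start, chr9:27529549-27530049, counted for a shorter gene that overlaps it, LOC124902107, under the rule. That peak had 14.6, 16.1 and 13.8 CPM in GFP low, against 12.6, 12.5 and 13.4 CPM in GFP high, a change of 0.21 ± 0.12 that was not called.

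XXYLT1 paired a start that was not lower in GFP low with distal peaks of which 11 of 14 were. The peak over its start, chr3:195270970-195271470, which covers the promoter printed above, had 71.9, 69.7 and 71.8 CPM in GFP low, against 60.8, 60.0 and 64.7 CPM in GFP high, a log2 change of 0.20 ± 0.06. It was called higher, but under loess scaling the change was 0.01 and the call was lost, as it was with DESeq2, without column V2 and without the 72 h pair. The other gene-end peak, chr3:195270154-195270654, had 20.1, 21.0 and 23.9 CPM in GFP low, against 19.9, 19.9 and 22.8 CPM in GFP high, a change of 0.05 ± 0.10. These levels differed by less than their spread over the times.

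Deep in XXYLT1, chr3:195154810-195155310 had 5.52, 7.08 and 6.32 CPM in GFP low, against 15.5, 14.0 and 13.7 CPM in GFP high, a log2 change of -1.19 ± 0.13. The peak at chr3:195080849-195081349 had 2.78, 3.09 and 4.24 CPM in GFP low, against 7.05, 7.25 and 8.52 CPM in GFP high, a change of -1.18 ± 0.16. The weaker chr3:195186331-195186831 had 2.78, 1.74 and 2.78 CPM in GFP low, against 4.47, 5.59 and 5.82 CPM in GFP high, a change of -1.13 ± 0.20. These 3 had no overlap between GFP levels.

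The strong distal peaks of XXYLT1 did not all follow. At chr3:195094948-195095448 GFP low had 19.8, 25.0 and 24.7 CPM, against 32.8, 30.9 and 33.4 CPM in GFP high, a log2 change of -0.49 ± 0.10. At chr3:195094044-195094544 GFP low had 12.7, 13.7 and 15.3 CPM, against 19.8, 23.0 and 23.1 CPM in GFP high, a change of -0.66 ± 0.11. The strongest distal peak, chr3:195259852-195260352, 11.1 kb past the start, had 31.0, 33.3 and 33.4 CPM in GFP low, against 32.0, 32.5 and 31.9 CPM in GFP high, a change of 0.02 ± 0.09. The GFP levels overlapped there, while they were apart at the other 2 strong peaks.

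UBE2E2 had the smallest median distal change of the 5, a log2 value of -0.49, spread over the longest gene. At its start, chr3:23202816-23203316, which covers the promoter printed above, GFP low had 42.5, 40.6 and 44.9 CPM, against 30.9, 34.6 and 34.7 CPM in GFP high, a change of 0.35 ± 0.08. Every GFP low library was above every GFP high library, and the call of higher was lost without the 72 h pair. The gene-end peak 0.9 kb on, chr3:23203706-23204206, had 15.8, 18.6 and 19.5 CPM in GFP low, against 16.6, 19.0 and 17.5 CPM in GFP high, a change of 0.02 ± 0.11.

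The strongest UBE2E2 peaks lay about 40 kb before the start. The peak at chr3:23162819-23163319 had 30.7, 46.8 and 33.3 CPM in GFP low, against 49.6, 53.5 and 52.3 CPM in GFP high, a log2 change of -0.51 ± 0.09. Its neighbour at chr3:23162198-23162698 had 26.1, 39.8 and 31.3 CPM in GFP low, against 44.9, 42.0 and 42.8 CPM in GFP high, a change of -0.43 ± 0.10. In both, GFP low was below GFP high at each time and came closest to it at 48 h.

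Inside UBE2E2 the changes were mostly moderate. The lowest was at chr3:23389571-23390071, with 2.85, 2.49 and 3.97 CPM in GFP low, against 7.52, 7.19 and 7.75 CPM in GFP high, a log2 change of -1.28 ± 0.16, and this was the 1 peak of the gene lower by at least 2-fold. Next came chr3:23210031-23210531, with 8.45, 7.54 and 6.35 CPM in GFP low, against 12.8, 11.8 and 9.96 CPM in GFP high, a change of -0.63 ± 0.12. At chr3:23377825-23378325 GFP low had 5.05, 6.01 and 4.18 CPM, against 8.38, 8.17 and 6.19 CPM in GFP high, a change of -0.58 ± 0.14. All 3 were lower in GFP low with no overlap. A strong peak 16.3 kb past the start, chr3:23219110-23219610, had 31.5, 35.9 and 34.4 CPM in GFP low, against 30.3, 32.3 and 29.9 CPM in GFP high, a change of 0.14 ± 0.09. That peak was not called, but it was called higher on the 18 columns and with V numbers read as time. The XXYLT1 peak 11.1 kb past its start, also above 30 CPM, was not lower either, a likeness picked out after the values were seen. Strength did not set these apart: the UBE2E2 peaks about 40 kb before the start, with means of 44.4 and 37.8 CPM, were called lower.

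**Figure D2:**
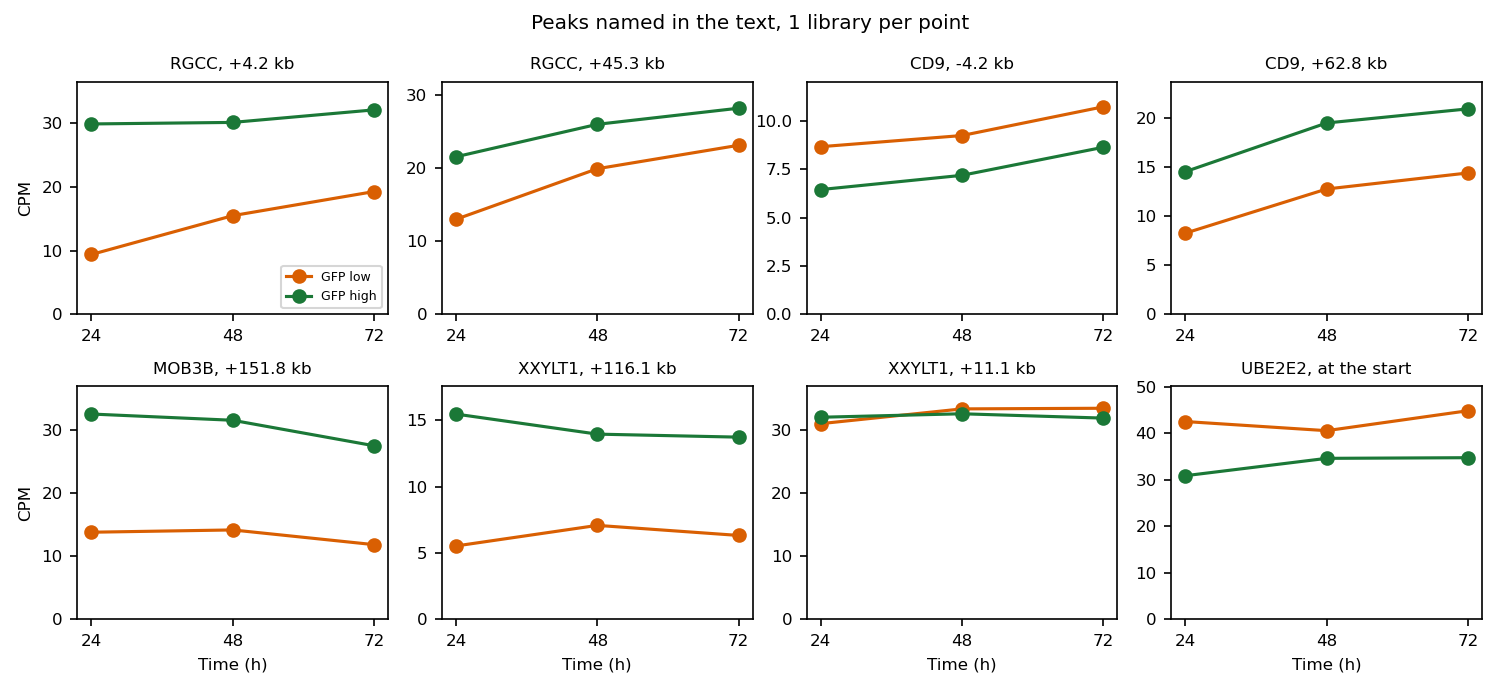
CPM (vertical axis, from 0) against time in h (horizontal axis) at 8 peaks named in the text, with GFP low in orange and GFP high in green and 1 library per point. At 5 of the peaks GFP low lies below GFP high at all times, at the CD9 peak 4.2 kb before the start and at the UBE2E2 start it lies above, and at the XXYLT1 peak 11.1 kb past the start the lines overlap.

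Summed over the distal peaks of each gene, GFP low held less signal than GFP high at every time. For RGCC the sums were 56.4, 72.4 and 81.3 CPM in GFP low at 24, 48 and 72 h, against 111.7, 118.5 and 126.2 CPM in GFP high. For MOB3B they were 87.2, 94.2 and 81.4 CPM in GFP low, against 165.5, 155.0 and 140.4 CPM in GFP high. These 2 genes had the lowest shares, at 50.5% to 64.4% and 52.7% to 60.8% of the GFP high signal. For CD9 the sums were 59.3, 72.3 and 78.1 CPM in GFP low, against 89.4, 100.7 and 107.2 CPM in GFP high. For XXYLT1 they were 123.2, 134.5 and 140.7 CPM in GFP low, against 186.8, 187.7 and 195.0 CPM in GFP high. For UBE2E2 they were 173.9, 216.4 and 183.7 CPM in GFP low, against 258.7, 255.5 and 237.0 CPM in GFP high. No GFP low sum of any of the 5 genes reached a GFP high sum of that gene. All distal peaks of the series together held 92.0% to 94.2% of the GFP high signal in GFP low. Those totals did not overlap either, at 547184 to 555066 CPM in GFP low and 585989 to 595069 CPM in GFP high. Nothing is read from the separation at the 5 genes, since they were picked on this contrast.

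**Figure D3:**
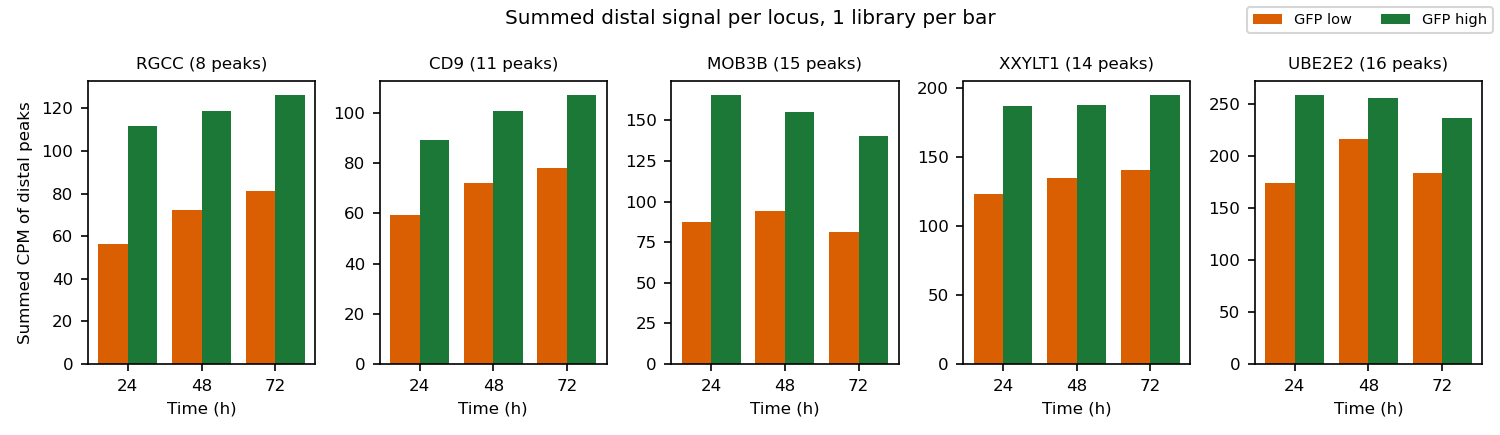
Summed CPM of the distal peaks of each gene (vertical axis, from 0) at 24, 48 and 72 h (horizontal axis), GFP low in orange and GFP high in green, 1 library per bar and no error bars. Each orange bar is lower than the green bar beside it, with the smallest ratio at RGCC at 24 h, 50.5%.

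The gene-end sums went the other way. At XXYLT1 they were 92.0, 90.7 and 95.7 CPM in GFP low, against 80.7, 79.9 and 87.5 CPM in GFP high. At UBE2E2 they were 58.3, 59.2 and 64.3 CPM in GFP low, against 47.4, 53.6 and 52.2 CPM in GFP high. At XXYLT1 and at UBE2E2, then, the start held more signal and the distal peaks less in GFP low than in GFP high. All gene-end peaks of the series together held 119.0%, 108.6% and 113.8% of the GFP high signal in GFP low at 24, 48 and 72 h. The shares were 113.9%, 113.5% and 109.4% at XXYLT1 and 123.0%, 110.3% and 123.2% at UBE2E2, so more signal at the start was not particular to them. A peak centre within 1 kb of the outermost start was present at 3 of the 5 genes, against 50.9% of all genes with a promoter sequence. Of the genes with such a sequence and at least 8 distal peaks the share was 60.2%, and of those among them with over 50% of distal peaks lower it was 59.2%.

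At single times, with 1 library per group and no test, the share of strongly lower peaks was highest at 24 h. Peaks at least 2-fold lower in GFP low numbered 19, 11 and 11 of 68 at 24, 48 and 72 h, where 8.16%, 3.85% and 3.83% of all peaks were that much lower. MOB3B gave 9, 4 and 6 of these, RGCC 3, 2 and 2, CD9 3, 2 and 0, XXYLT1 3, 2 and 3 and UBE2E2 1, 1 and 0. The count at 72 h was 6 under loess scaling. The RGCC peak at chr13:41461529-41462029 showed the change over time most clearly. Its log2 difference was -1.66 at 24 h (95% counting interval -1.94 to -1.39), -0.96 at 48 h and -0.73 at 72 h (-0.94 to -0.53). The difference at 72 h was thus above that at 24 h by 0.93 (0.58 to 1.27), and between these times GFP low changed by 1.03 and GFP high by 0.10.

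The log2 difference, GFP low minus GFP high, was higher at 72 h than at 24 h by the counting interval at 10 of the 68 peaks and lower at none, where 7.15% of all peaks were higher and 7.65% lower. The 10 were all distal, and of all 57602 distal peaks 4565 were higher and 3255 lower. At all 10 it was negative at 24 h, as it was at 59 of the 64 distal peaks. Nothing is read from that, since the genes were picked for lower signal in GFP low. RGCC, CD9 and XXYLT1 each had 2 of the 10, MOB3B 1 and UBE2E2 3. At the UBE2E2 peak chr3:23404932-23405432 the log2 difference was -0.61 at 24 h and 0.24 at 72 h, a rise of 0.86 (0.32 to 1.40). At the CD9 peak chr12:6193803-6194303 it was -1.35 at 24 h and -0.44 at 72 h, a rise of 0.91 (0.27 to 1.54). These intervals cover counting error between single libraries and no spread between cultures.

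**Figure D4:**
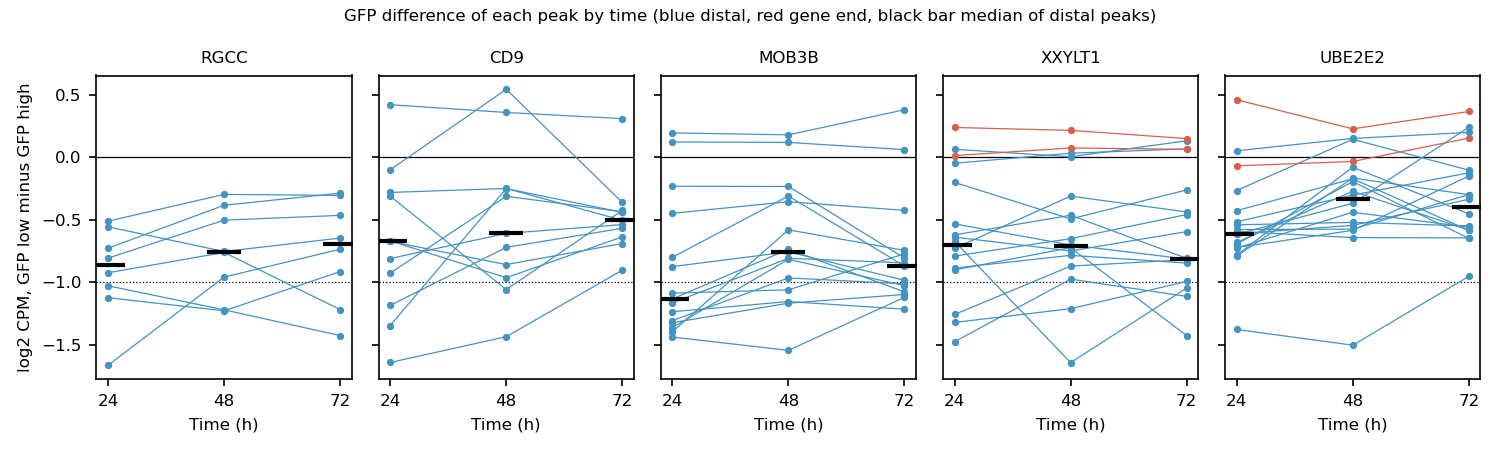
Log2 CPM difference, GFP low minus GFP high (vertical axis), at 24, 48 and 72 h (horizontal axis) for each of the 68 peaks, 1 panel per gene, with distal peaks in blue, gene-end peaks in red and black bars at the median of the distal peaks. The dotted line marks 2-fold lower. The medians of MOB3B are -1.13, -0.76 and -0.87 and those of RGCC -0.86, -0.76 and -0.69.

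Change with time over both GFP levels was tested. Its estimate is balanced over the GFP levels whose contrast picked the genes. Its test uses the residual spread of the same fit, so it is not fully independent of the choice. Of the 68 peaks 2 were called at 72 h against 24 h by edgeR's quasi-likelihood test, both higher at 72 h, where 2.76% of all peaks were called in either direction, 0.882% higher and 1.87% lower. The RGCC peak at chr13:41502579-41503079 was higher by 0.60 ± 0.14 (log2, SE, adjusted p = 0.0152), in GFP low and in GFP high. The call was lost without column V2 (0.49, adjusted p = 0.103). The CD9 peak at chr12:6262526-6263026 was higher by 0.66 ± 0.14 (adjusted p = 0.0108), also in both GFP levels. With V numbers read as time neither peak was called, at 0.06 for RGCC (adjusted p = 0.984) and -0.060 for CD9 (adjusted p = 0.989). The share of 2 in 68 is near the background, and at 48 h against 24 h edgeR called 0 of all 71318 peaks, with 6 of the 68, against 5369 of all 71318, at an unadjusted p under 0.05. At 72 h against 24 h, 16 of the 68 and 11382 of all peaks had such a p.

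The sign of the change with time is given per gene as a description, since the peaks share 6 libraries and a difference between the genes was not tested. Over all peaks 35042 were positive and 36276 negative. At CD9 all 11 peaks had a positive log2 change at 72 h over 24 h, with a median of 0.42, and at RGCC 6 of 8 did, with a median of 0.19. At MOB3B 10 of 15 were negative, with a median of -0.21. XXYLT1 had 13 of 16 positive and UBE2E2 8 of 18, with medians of 0.09 and -0.06. Beyond the 2 called peaks none passed the test, the lowest adjusted p being 0.112 at MOB3B, 0.245 at XXYLT1 and 0.196 at UBE2E2. Within GFP high alone, 6 of the 68 peaks were higher at 72 h than at 24 h by the counting interval, 3 at RGCC and 3 at CD9, where 9.44% of all peaks were. Another 9 were lower, 4 at MOB3B and 5 at UBE2E2, where 10.9% of all peaks were. Within GFP low 16 were higher and 4 lower, where 12.4% and 13.5% of all peaks were.

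**Figure D5:**
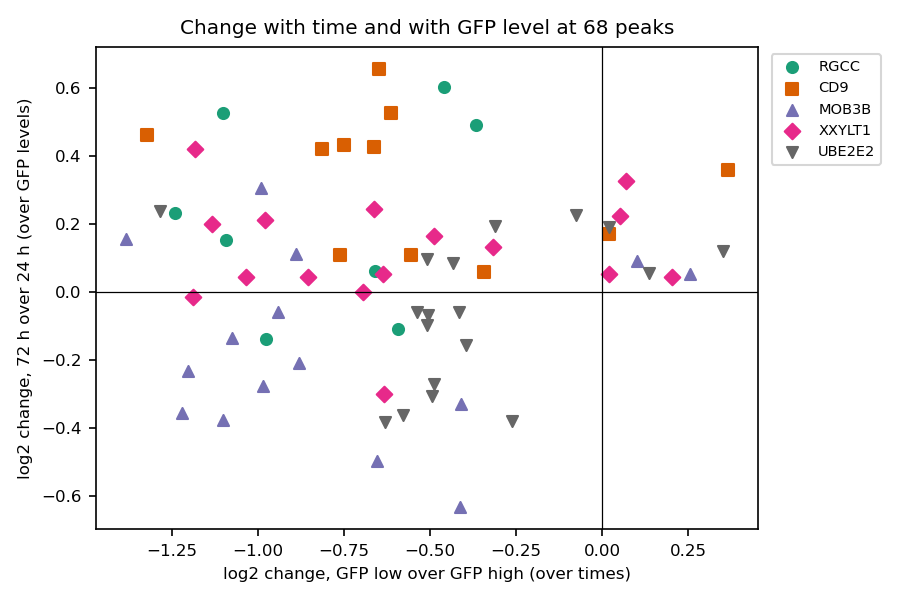
Log2 change at 72 h over 24 h, over both GFP levels (vertical axis), against log2 change of GFP low over GFP high, over the times (horizontal axis), for the 68 peaks, with 1 marker per gene. The 11 CD9 squares all lie above 0 on the vertical axis, and 10 of the 15 MOB3B triangles lie below it.

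Lower peaks were found at all levels of signal. Distal peaks of the 5 genes had a median of 7.78 CPM, against 6.39 CPM for all distal peaks. In 4 equal bins of all distal peaks by mean CPM, weakest to strongest, 5 of 6, 15 of 18, 18 of 23 and 14 of 17 were lower, where the shares of all distal peaks were 29.0%, 31.3%, 32.2% and 29.3%. Across the 64 peaks, which share libraries and are not replicates, log2 CPM and log2 change had a Pearson r of 0.20 and a Spearman rho of 0.21. Spacing varied widely: the median gap between neighbouring distal peaks was 1.59 kb at RGCC, 3.22 kb at MOB3B, 7.28 kb at CD9, 16.5 kb at XXYLT1 and 20.8 kb at UBE2E2. Unbroken rows of lower peaks counted 8 over 41.6 kb at RGCC, 5 over 48.7 kb at CD9, 6 over 123.7 kb at XXYLT1 and 6 over 108.5 kb at UBE2E2.

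The genes on either side of the 5, which the rule did not choose, were near the background. Of 55 distal peaks of the 10 neighbours, 17 were called lower, 30.9%, and 2 higher, close to the 30.5% of all distal peaks. None of the 8 peaks of VWF, the von Willebrand factor gene next to CD9, and neither of the 2 of NAA16, next to RGCC, was lower. VWA8, on the other side of RGCC, had 4 of 11 lower and 1 higher. UBE2E1, the neighbour of UBE2E2 and another E2 enzyme of its group, had 6 of 10 lower and 1 higher. The lowest of the 6, chr3:23865845-23866345, averaged 9.89 ± 0.46 CPM in GFP low and 15.2 ± 1.58 CPM in GFP high (SD, n = 3 times each).

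Relatives of the 5 genes were counted without the members themselves. Of the 17 other tetraspanins, all with a peak, 15 of 79 distal peaks were lower, 19.0%, and 3 higher. CD82 had 5 of 19 lower, TSPAN33 3 of 8 and CD81 1 of 5. Of the 6 other MOB genes, 5 of 20 distal peaks were lower, 25%, and all 5 belonged to MOB1B. The kinases and scaffold that MOB proteins work with had 9 of 33 lower, 27.3%, and 1 higher, with 4 of 16 at STK3. The 6 other E2 enzymes of the UBE2E and UBE2D groups had 8 of 34 lower, 23.5%, and 7 higher, and 6 of the 8 were at UBE2E1. None of these shares was above the 30.5% of all distal peaks.

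The enzymes of O-glucose and related Notch glycans had 7 of 14 distal peaks lower, 50%, and 1 higher, with peaks at 6 of 9 genes. Of all distal peaks 30.5% were called lower and 8.43% higher, and of all gene-end peaks 4.24% were called lower. The counts of single genes below are small, and their difference from these shares was not tested. LFNG, the fringe enzyme that extends O-fucose on Notch, had 2 of 2 distal and 3 of 3 gene-end peaks lower, with log2 changes from -0.83 to -0.35. GXYLT1, which adds the xylose that XXYLT1 extends, had 2 of 4 distal peaks lower and MFNG 2 of 4. The partners of RGCC (CDK1, CCNB1, PLK1, AKT1, SIRT1) had 3 distal peaks, of which none was lower and 1, at CDK1, was higher.

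Likeness to other genes was measured as the root mean square difference of centred log2 CPM of summed distal peaks over the 6 libraries, among 3059 genes with at least 5 distal peaks. The nearest to RGCC were COL25A1, at 0.045, PPP1R12B and NECAP2. The nearest to CD9 were CDC42BPB, at 0.021, TMPRSS15 and TNFRSF1B, and to MOB3B EFNB2, at 0.049, WDR17 and FBXL13. XXYLT1 was nearest to ADAM19, at 0.022, POU3F1 and ZNF804A, and UBE2E2 to PID1, at 0.029, BBS9 and C16orf78. Among the 5 the values ran from 0.088 between CD9 and XXYLT1 to 0.255 between RGCC and UBE2E2. Each of the 5 had other genes nearer to it than any of the set. Nothing is read from that, since the nearest of 3059 genes is set against the nearest of a few. All values share the same 6 libraries.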

How the data were processed

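Omni-ATAC-seq was run on Raji cells of low or high GFP level at 24, 48 and 72 h. The authors deposited 1 table of whole-number read counts, not normalised, for 71318 peaks of 501 bp in 18 columns. A column held 7106939 to 11171849 counts, and each GFP level and time had 3 columns. The build was hg38, with BWA, FastQC, deepTools and R 4.2.1 among the tools, per the submitters' processing notes. Peak calling, duplicate handling and any shift of reads to the cut site could change the counts. For these steps the tool and settings were not given in the sources used here.

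Column headers carry D and V numbers. The D numbers 1, 2 and 3 were taken for 24, 48 and 72 h, while V numbers could not be tied to replicates. Squared differences between columns of a group, over their counting variance, averaged 1.78 to 1.81 in all 18 pairs, so the columns were summed to 6 libraries. The fit was edgeR 4.0.16 in R 4.3.3 (TMM, robust quasi-likelihood, terms for time and GFP level, 2 residual degrees of freedom, median of 22.6 prior degrees of freedom), adjusted by Benjamini-Hochberg over all peaks at 0.05. The default filter removed 0 peaks. Each GFP level and time then had 1 library, so p-values set a change against spread over the design, which may be technical. CPM are counts scaled to the TMM library size. Values at 1 time used a prior count of 2 and a 95% interval with the counting variance multiplied by 1.798, which covers counting error only. The scripts were tested on simulated data.

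Peaks were assigned to 19879 protein-coding RefSeq genes (GRCh38), the shortest where several spans held a centre, after 95 readthrough genes were left out. The members, lists and tests were chosen with earlier results of these data known. Named peaks are all gene-end peaks and, per gene, the 3 distal peaks with the most counts, the 3 with the lowest log2 change and those called for time. Peaks named outside that rule were picked after their values were seen. They were those not called at MOB3B and the CD9 peaks 4.7 kb past and 5.9 kb before its start. The others were the UBE2E2 peak at 202.1 kb and the UBE2E1 peak. Alternatives were DESeq2 1.42.0, other scalings, filters, gene assignments, and columns or times left out. The result of 1 marker gene is not reported here.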

Additional observations from a re-analysis of the deposited data

How the results depend on the processing

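The count of distal peaks lower in GFP low, 52 in the fit reported, was 45 with DESeq2, 48 with loess scaling, 52 with DESeq2 size factors, library totals, a mean count of at least 30 or no filter, 55 on 18 columns, 47 to 50 with a column or a time pair left out and 56 with V numbers read as time. With other gene rules it was 36 of 46 distal peaks inside the genes, 57 of 71 within 100 kb and 52 with gene ends taken to 2 kb. It was also 52 when every gene that holds a centre counted, an alternative chosen after seeing the data. Whether V numbers pair samples was not settled. Deviations of columns from their group mean had correlations of -0.005 to 0.0173 across groups for the same V number (median 0.0048). For other V numbers they were -0.0143 to 0.0104 (median -0.0024). Columns of a group differed by a fixed multiple of counting noise, so values near 0 cannot decide this. A replicate block on the 18 columns gave 54.

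The count of peaks changed at 72 h against 24 h, 2 in the fit reported, was less stable. It was 11 on 18 columns and 9 with the replicate block, 0 with V numbers read as time, 0 when only peaks inside the genes counted, and 1 (without V2) to 4 (without the 48 h pair) with something left out. It could not be fitted without the 24 h or the 72 h pair. The rise at the CD9 peak starting at 6262526 turned to -0.060 with V numbers read as time. Peaks at least 2-fold lower at 72 h numbered 6 with loess scaling, against 11. The cause was not tested, except that fewer peaks were counted inside the genes. The summed distal change of CD9 was -0.43 with loess scaling, against -0.50, also a check chosen after seeing the data. Of 32 named peaks 6 lost their call without the 72 h pair, 4 with DESeq2, 1 with loess scaling and 1 to 3 without another time or column. No called peak among them changed sign over 15 settings. Of those not called, the XXYLT1 peak starting at 195259852 (0.02) was at -0.08 with loess scaling, and its sign also turned with library totals and without the 72 h pair. The XXYLT1 peak starting at 195270154 turned without V1 and the UBE2E2 peak starting at 23203706 with library totals and without V0, V2 or the 72 h pair (-0.05, the lowest of these).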

Other observations

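Peaks with no protein-coding gene within 50 kb lay in the gaps beside XXYLT1 and UBE2E2. For the counts below, the background was 30.5% of all distal peaks called lower and 8.43% called higher. In the 214 kb between UBE2E2 and UBE2E1 there were 6, and all 6 were called lower in GFP low, with log2 changes from -1.24 to -0.35 and a median of -0.72. On the other side of UBE2E2, towards ZNF385D, 2 of 12 such peaks were lower and 2 higher in 830.3 kb. Between XXYLT1 and FAM43A, 5 of 9 were lower and 1 higher in 379.2 kb. These gaps were looked at after the values of the neighbouring genes were known.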
